A study of Mus musculus with 15 samples.

Results

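The genes of the phagocyte NADPH oxidase and of the enzymes that dispose of its products were compared over 5 murine mononuclear phagocyte (MP) subtypes. The 9 genes were taken by symbol and matched to 9 of the 38924 gene identifiers counted. All 9 passed the filter on low counts, which kept 14456 genes. Of these genes, 5 belong to the oxidase (Cybb, Cyba, Ncf1, Ncf4 and Rac2) and 4 encode antioxidant enzymes (Sod1, Sod2, Sod3 and Cat). The spleen gave CD8+ dendritic cells (DC1, sorted as CD8+, CD11c+ and MHCII+), CD4+ DCs (DC2, sorted as CD4+, CD11c+ and MHCII+) and Ly6C+ monocytes (sorted as Ly6C+ and CD11b+). The mediastinal lymph nodes (LNs), which drain the lung, were the source of migratory CD103+ DCs of the DC1 lineage and CD11b+ DCs of the DC2 lineage, both CD11c+ and gated on high MHCII. All mice were naïve C57BL/6 females of 6 to 8 weeks by the labels, with no transgene or treatment named. Each subtype had 3 libraries, each made from cells pooled from 5 mice, so that p values measure the spread between pools. LNs and spleens came from different cohorts, and organ, cohort and MHCII gate cannot be told apart in these data.

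The phagocyte oxidase is a membrane enzyme that passes electrons from NADPH to oxygen and so makes superoxide. Its membrane core is a pair of subunits, gp91phox (Cybb) and p22phox (Cyba), and it becomes active when cytosolic subunits, among them p47phox (Ncf1) and p40phox (Ncf4), and the small GTPase Rac2 join the core. In phagocytes it serves the killing of microbes, and in DCs it is also known for lowering the acidity of phagosomes, which spares antigen for cross-presentation. Superoxide dismutases turn superoxide into hydrogen peroxide, and catalase breaks the peroxide down to water and oxygen.

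The libraries carried from 4531243 to 10233914 counts each and detected 15222 to 17693 genes. Levels below are CPM, the usual count per library size in which edgeR's TMM factors scale that size, and TPM, the authors' values per exon length, where genes are compared with each other. The labels were checked against marker genes. The 5 DC1 markers summed to 3213 to 5060.5 CPM in splenic CD8+ DCs against 49.8 to 83.5 CPM in their CD4+ counterparts, and to 635 to 962 CPM in LN CD103+ DCs against 218 to 351 CPM in LN CD11b+ DCs. Itgae, which encodes CD103, was at 27.2 ± 10.8 CPM (SD, n = 3) in LN CD103+ DCs, below the 107 ± 32.0 CPM of splenic CD8+ DCs. The migratory DC markers Ccr7 and Fscn1 summed to 4779 to 11476 CPM in the LN libraries and to 130 to 348 CPM in the splenic DC libraries. The 4 DC2 markers summed to 1416 to 2446 CPM in splenic CD4+ and 784 to 868 CPM in LN CD11b+ DCs, to 2277 to 2595 CPM in monocytes, and to at most 167 CPM in the DC1 libraries. The 4 monocyte markers summed to 5258 to 5775 CPM in monocytes, against 464 to 676 CPM in splenic CD4+, 525 to 626 CPM in LN CD11b+, 146 to 217 CPM in splenic CD8+ and 30.4 to 48.05 CPM in LN CD103+ DCs. Markers of macrophages, neutrophils and B cells, which also express oxidase genes, were found too. The 7 macrophage markers, all detected in each subtype, summed to 1051 to 1338 CPM in splenic CD4+, 629 to 929 CPM in LN CD11b+, 180 to 285 CPM in splenic CD8+ and 176 to 225 CPM in LN CD103+ DCs, and to 442 to 501 CPM in monocytes. The 10 neutrophil markers summed to 216 to 338 CPM in monocytes and to at most 5.75 CPM in any DC library. In monocytes the means were 99.3 CPM for Ngp, 49.8 for Ltf, 41.9 for S100a8, 37.9 for S100a9 and 25.3 for Camp. Mpo was at 3.04, Elane at 1.98, Cxcr2 at 0.455, Ly6g at 0.219 ± 0.200 and Retnlg at 0.173 CPM. The 4 B cell markers summed to 216 CPM in replicate 1 of LN CD103+ DCs, against 15.3 and 19.4 CPM in replicates 2 and 3, and to 76.6 to 87.9 CPM in splenic CD4+, 44.0 to 76.6 CPM in LN CD11b+ and 29.8 to 42.9 CPM in splenic CD8+ DCs and 24.2 to 29.3 CPM in monocytes. The 6 erythroid markers summed to 28.7 to 238 CPM in splenic DCs, 1.82 to 58.5 CPM in LN DCs and 3.98 to 5.70 CPM in monocytes, and the 3 T cell markers to 12.7 to 34.8 CPM in LN DCs and at most 3.35 CPM in the splenic libraries. Red cells carry Sod1, Cat and peroxiredoxins, and the part of their RNA in the levels of these genes was not tested.

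Cybb had the widest range of mean levels among the 8 genes other than Sod3, which was at 0 in splenic DCs. It lies at X:9435252-9487771 (mm10, minus strand) and encodes the catalytic subunit. Monocytes held 1969, 1825 and 1937 CPM, splenic CD4+ DCs 327, 345 and 389 CPM, LN CD11b+ DCs 235, 193 and 209.95 CPM, splenic CD8+ DCs 158, 103 and 55.3 CPM, and LN CD103+ DCs 31.5, 9.25 and 14.4 CPM. No library of 1 subtype overlapped the next, so that the subtypes stood in the same order in all libraries. The mean ranged from 1910.1 ± 75.4 CPM in monocytes to 18.4 ± 11.7 CPM in LN CD103+ DCs, a ratio of 104. Of the 4 steps in this order, 3 passed the edgeR test, and the step from splenic CD4+ to LN CD11b+ DCs did not (log2 difference 0.73 ± 0.34 SE, adjusted p = 0.112). Within both organs DC1 was below DC2, and within DC1 LN was below spleen past the threshold. The highest of the LN CD103+ libraries was replicate 1, the library with the B cell markers. Without that library the mean of LN CD103+ DCs would be lower, and the ratio of 104 larger. Over the 4 DC subtypes the summed macrophage and monocyte markers were higher in DC2 than in DC1, as Cybb was. Between splenic CD4+ and LN CD11b+ DCs the macrophage markers did not move together. Adgre1 (664 against 117 CPM) and Vcam1 (321 against 266 CPM) were higher in splenic CD4+ DCs in mean. C1qa (19.8 against 54.9 CPM), C1qb (70.5 against 205 CPM), C1qc (55.3 against 113 CPM), Mertk (17.7 against 22.7 CPM) and Spic (22.6 against 25.4 CPM) were lower there. The monocyte markers Ccr2 (57.7 against 16.9 CPM) and Ly6c2 (10.9 against 0.564 CPM) were however higher in splenic CD8+ than CD4+ DCs in mean. In both splenic DC subtypes Csf1r (96.7 against 516 CPM) made up most of the monocyte sum. In LN CD103+ DCs it did not, at 13.3 CPM beside 13.5 CPM for Cd14. The part of B cells, macrophages and monocytes in these Cybb levels was not tested. In bulk RNA of sorted cells, fewer cells that carry a transcript and less of it per cell cannot be told apart.

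The promoter of Cybb is shown with those of Ncf1 and Sod1, since these 3 genes had different orders over the subtypes. RefSeq windows of 300 bases (250 before and 50 after the start that the table gives, build GRCm38.p6, printed 5′ to 3′ on the gene's strand) were found for 6 of the 9 genes, and not for Ncf4, Rac2 and Sod3. They were searched on both strands for 2 motifs. These were GAGGAA, a form of the core of sites bound by the myeloid factor PU.1, and TGACNNNGC, the antioxidant response element bound by NRF2. Matches are in capitals. The windows lie at chrX:9469275-9469574 (minus strand) for Cybb, chr5:134229576-134229875 (minus strand) for Ncf1 and chr16:90220512-90220811 (plus strand) for Sod1. The Cybb window lies inside the gene as counted, whose first base on the minus strand is X:9487771, and not at that base.
Cybb: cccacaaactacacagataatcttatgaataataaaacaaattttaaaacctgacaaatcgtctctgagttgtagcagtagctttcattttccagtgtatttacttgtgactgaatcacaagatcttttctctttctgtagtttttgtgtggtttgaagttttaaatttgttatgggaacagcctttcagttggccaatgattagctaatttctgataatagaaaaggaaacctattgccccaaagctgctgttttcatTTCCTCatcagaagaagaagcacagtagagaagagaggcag
Ncf1: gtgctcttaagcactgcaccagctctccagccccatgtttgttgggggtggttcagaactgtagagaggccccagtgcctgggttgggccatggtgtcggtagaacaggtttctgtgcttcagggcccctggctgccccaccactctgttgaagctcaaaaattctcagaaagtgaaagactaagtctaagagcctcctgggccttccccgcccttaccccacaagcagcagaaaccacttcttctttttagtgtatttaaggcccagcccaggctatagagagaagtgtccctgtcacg
Sod1: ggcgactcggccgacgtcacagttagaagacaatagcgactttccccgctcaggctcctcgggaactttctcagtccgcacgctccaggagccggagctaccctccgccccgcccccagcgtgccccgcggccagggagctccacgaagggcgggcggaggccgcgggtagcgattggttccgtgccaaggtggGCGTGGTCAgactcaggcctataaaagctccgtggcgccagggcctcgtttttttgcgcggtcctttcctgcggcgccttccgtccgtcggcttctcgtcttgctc
The Cybb window holds 1 GAGGAA on the strand opposite to the gene, which reads TTCCTC here, within the 50 bases after the start. The Ncf1 window holds neither motif. The Sod1 window holds 1 TGACNNNGC on the opposite strand, which starts 56 bases before that start and reads GCGTGGTCA here. The windows of Sod2 and Cat hold 1 GAGGAA each, and that of Cyba holds neither. Among all 32841 windows of this length, 28.3% hold GAGGAA and 12.4% hold TGACNNNGC. The GC content was 35.3% in the Cybb window, 54.0% in the Ncf1 window and 66.7% in the Sod1 window, against a median of 52.7% over all windows. A match is a description of these letters only, and other forms of these sites were not searched for.

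Cyba, the partner that stabilizes gp91phox in the membrane (8:122424772-122432940, minus strand), did not follow Cybb. Splenic CD8+ DCs held 366, 393 and 468 CPM. It was at 603, 1067 and 1269 CPM in splenic CD4+ DCs, at 860.5, 934 and 1101 CPM in LN CD103+ DCs, at 1014, 1174 and 1666 CPM in LN CD11b+ DCs and at 978.5, 974 and 1006 CPM in monocytes. Splenic CD8+ DCs lay below every other library, and the other 4 subtypes were not separated by the test from their neighbours in the order (adjusted p = 0.208, 0.989 and 0.954 by edgeR). Cyba was the most abundant of the 9 genes per length, with a mean of 1297 to 4099 TPM, and took 65.7% to 93.6% of the TPM of the 5 oxidase genes in each library.

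Ncf1, the organizer that carries the cytosolic subunits to the membrane (5:134220053-134229625, minus strand), was highest where Cybb was lowest. LN CD103+ DCs held 322, 325 and 322 CPM, monocytes 199, 189.8 and 263 CPM, LN CD11b+ DCs 226, 176 and 203 CPM, splenic CD8+ DCs 84.4, 71.5 and 129 CPM, and splenic CD4+ DCs 87.8, 46.2 and 112 CPM. Both LN subtypes lay above all 6 splenic DC libraries, and the splenic DC subtypes overlapped each other. Monocytes overlapped LN CD11b+ DCs (adjusted p = 0.766), and their difference from LN CD103+ DCs had an adjusted p of 0.0783 by edgeR. Of the exon length of Ncf1, 11.1% (408 bases) lies over Gtf2ird2 on the other strand, and the counting took no account of strand. Gtf2ird2 held 8.00% to 25.5% as many counts as Ncf1 per library, with 9.29% to 13.1% in LN DCs and 12% to 25.5% in splenic DCs, which bounds the reads that can have been counted for both.

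Ncf4, the subunit that reads a lipid of the phagosome membrane (15:78244801-78262580, plus strand), was highest in monocytes, at 155, 223 and 216 CPM. Splenic CD8+ DCs held 60.1, 51.3 and 104 CPM and splenic CD4+ DCs 51.6, 20.1 and 84.1 CPM, and these overlapped each other. LN CD11b+ DCs held 20.5, 14.4 and 22.5 CPM and LN CD103+ DCs 17.4, 10.2 and 10.9 CPM. LN CD11b+ and splenic CD4+ DCs overlapped through replicate 2 of the latter, although their means differed past the threshold.

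Rac2, the GTPase of blood cells that switches the complex on (15:78559169-78572783, minus strand), ranked as Cybb did except that splenic CD8+ DCs stood above LN CD11b+ DCs. Monocytes held 501, 512 and 551 CPM, splenic CD4+ DCs 360.1, 257 and 359.7 CPM, splenic CD8+ DCs 165, 176 and 219.8 CPM, LN CD11b+ DCs 144, 142 and 146 CPM, and LN CD103+ DCs 101, 51.0 and 56.5 CPM. No neighbouring subtypes overlapped, and 3 of the 4 steps passed the edgeR test, with splenic CD8+ over LN CD11b+ DCs the exception (adjusted p = 0.197). In LN CD103+ DCs the highest library for Rac2 and for Ncf4 was replicate 1, as for Cybb, and the part of B cells in these levels was not tested.

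**Figure D1:**
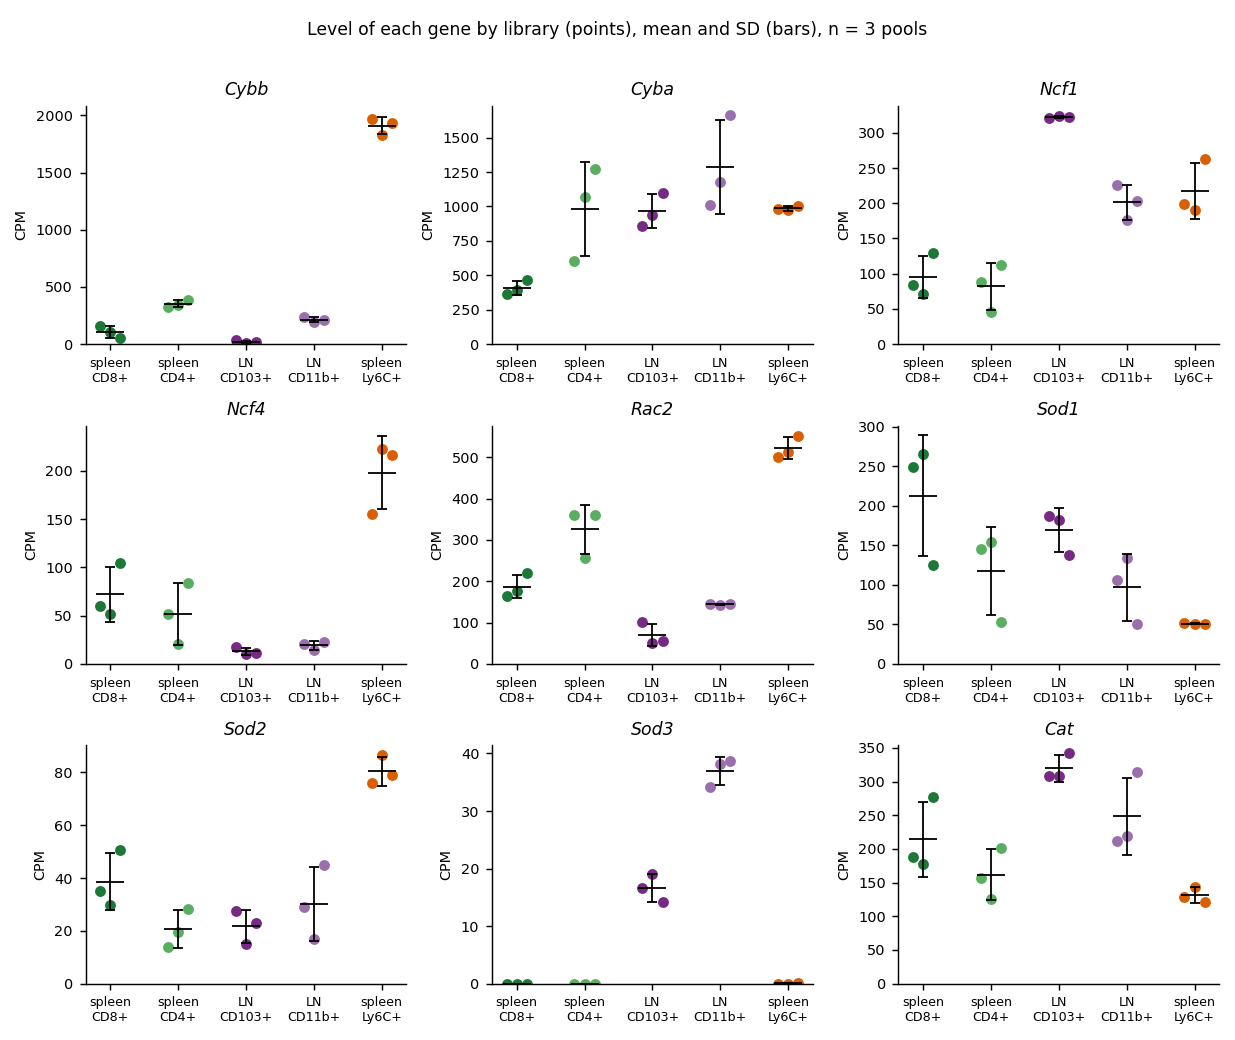
Level of each of the 9 genes in CPM (linear axis from 0), by subtype, with each library as a point and the mean ± SD as bars (n = 3 pools). Cybb, Ncf4, Rac2 and Sod2 are highest in Ly6C+ monocytes, Ncf1 and Cat in LN CD103+ DCs, Cyba and Sod3 in LN CD11b+ DCs, and Sod1 in splenic CD8+ DCs.

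Among the antioxidant enzymes, Sod1, the copper-zinc dismutase of the cytosol (16:90220742-90226322, plus strand), was highest in splenic CD8+ DCs in mean and lowest in monocytes. Splenic CD8+ DCs held 249, 265 and 125 CPM, LN CD103+ DCs 188, 183 and 138 CPM, splenic CD4+ DCs 145, 154 and 52.8 CPM, LN CD11b+ DCs 107, 134 and 49.9 CPM, and monocytes 51.3, 50.1 and 50.9 CPM. Neighbouring DC subtypes overlapped and did not pass the test (adjusted p = 0.484, 0.245 and 0.613 by edgeR). In all 4 DC subtypes, replicate 3 was the lowest of the 3 libraries for Sod1 and the highest for Cyba and for Cat. What sets the libraries numbered 3 apart was not tested, and the fit without them is given beside the calls that it changes.

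Sod2, the manganese dismutase of mitochondria (17:13007839-13018119, plus strand), was at 75.9, 86.6 and 78.9 CPM in monocytes, above every DC library. Splenic CD8+ DCs held 35.3, 29.95 and 50.7 CPM, LN CD11b+ DCs 29.04, 17.01 and 44.9 CPM, LN CD103+ DCs 27.4, 14.98 and 23.03 CPM and splenic CD4+ DCs 14.05, 19.6 and 28.5 CPM. The 4 DC subtypes were not separated from their neighbours in this order, with adjusted p of 0.397, 0.405 and 0.875 by edgeR.

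Sod3, the secreted dismutase that binds to the extracellular matrix (5:52363946-52371405, plus strand), was found in LN DCs. LN CD11b+ DCs held 34.2, 38.1 and 38.7 CPM and LN CD103+ DCs 16.6, 19.1 and 14.2 CPM, with no overlap. All 6 splenic DC libraries had 0 counts, which allows up to 0.122 CPM over the CD8+ group and 0.153 CPM over the CD4+ group (3 counts over the group, counting error only). Monocytes had 1 count, in replicate 3. LN CD103+ DCs were thus at least 136-fold higher than splenic CD8+ DCs, and LN CD11b+ DCs at least 242-fold higher than splenic CD4+ DCs, or at least 146-fold without splenic CD4+ replicate 1. Over monocytes the ratio was 382 (95% Poisson interval 68.6 to 15104) for LN CD103+ DCs and 850.1 (153 to 33576) for LN CD11b+ DCs. Both ratios rested on the 1 count in monocyte replicate 3. Without that library the monocytes were at 0, and the limits were at least 85.3-fold and 189.6-fold, while without monocyte replicate 2 the ratios were 211 and 469. Without splenic CD8+ replicate 1 or 3, which leaves fewer reads behind the same 3 counts, the limit for LN CD103+ DCs was at least 89.6-fold or 87.5-fold. Cells of connective tissue also make Sod3. The 7 stromal and endothelial markers summed to 7.95 to 20.1 CPM in LN DCs and to 56.5 to 99.3 CPM in splenic DCs, where Pecam1 alone had a mean of 73.1 CPM in CD8+ and 83.3 CPM in CD4+ DCs. The collagen genes Col1a1, Col1a2 and Col3a1 had means of 0.894 to 2.10 CPM in LN DCs and 0 to 0.564 CPM in splenic DCs. In each LN library the level of each collagen gene was at most 3.09 CPM, below that of Sod3, and the part of such cells in the Sod3 level was not tested.

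Cat, catalase of the peroxisome (2:103453849-103485160, minus strand), had the narrowest range of these 8 genes, with a ratio of 2.43 between the highest and the lowest mean. LN CD103+ DCs held 308, 308 and 343 CPM, LN CD11b+ DCs 212, 219 and 314 CPM, splenic CD8+ DCs 187, 177 and 277 CPM, splenic CD4+ DCs 157, 126 and 202 CPM, and monocytes 129, 144 and 121 CPM. Every neighbour in this order overlapped the next, and none of the 4 steps passed the edgeR test (adjusted p = 0.318, 0.470, 0.182 and 0.278).

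Since TPM is per exon length, the proportions between subunits could be compared within a library. Cybb stood at 24.4% to 26.3% of the Cyba level in monocytes, at 4.003% to 7.07% in splenic CD4+ DCs, at 1.54% to 5.65% in splenic CD8+ DCs, at 1.64% to 3.03% in LN CD11b+ DCs and at 0.129% to 0.478% in LN CD103+ DCs. Monocytes lay above all DCs and LN CD103+ DCs below all other libraries in this proportion. Ncf4 was at 78.9% to 213% of Ncf1 in the splenic subtypes, monocytes included, and at 5.68% to 20.1% in the LN subtypes, with no overlap between the organs. Rac2 was at 48.9% to 52.2% of its close relative Rac1 in monocytes, 32.1% to 61.7% in splenic CD4+ DCs, 27.1% to 36.2% in splenic CD8+ DCs, 17.4% to 22.5% in LN CD11b+ DCs and 6.62% to 13.8% in LN CD103+ DCs. For all 3 proportions the LN CD103+ DCs had the lowest mean. These separations are a description and were not tested. Between a single pair of subtypes, with 3 libraries a side, the smallest 2-sided p of an exact permutation test is 0.1.

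**Figure D2:**
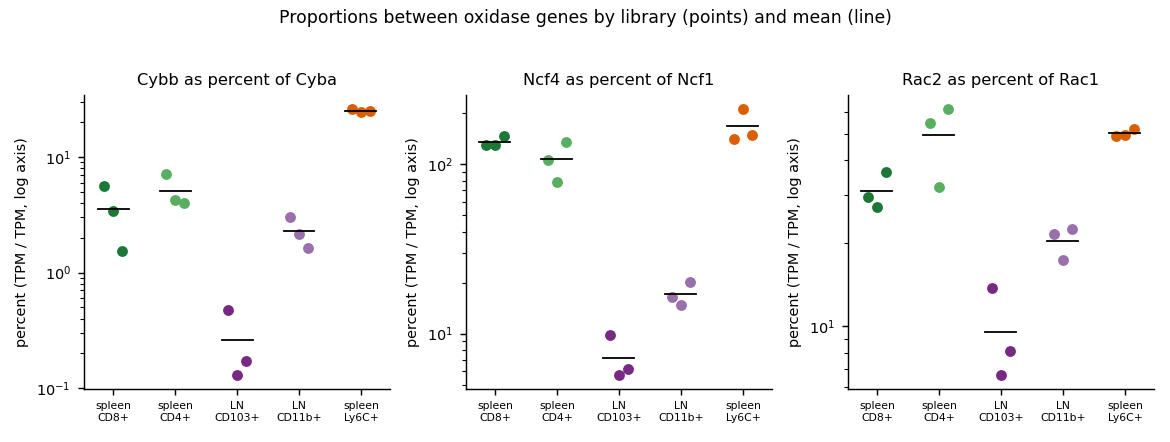
Cybb relative to Cyba, Ncf4 relative to Ncf1, and Rac2 relative to Rac1, in percent of TPM on a log axis, with a point for each library and a line at the mean of 3. In LN CD103+ DCs Cybb is at 0.129% to 0.478% of Cyba, and in monocytes at 24.4% to 26.3%.

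The makeup of the dismutases also differed. Sod1 gave most of the dismutase TPM in every library, with 91.6% to 98.4% in splenic DCs, 95.5% to 96.8% in LN CD103+ DCs, 77.4% to 93.2% in LN CD11b+ DCs and 77.4% to 80.01% in monocytes. Sod2 gave 19.99% to 22.6% of the total in monocytes, against 1.34% to 11.7% in DCs. In LN CD11b+ DCs Sod3 gave 4.80% to 10.8%, and in LN CD103+ DCs 1.54% to 1.83%. The highest Sod2 and Sod3 shares among LN CD11b+ DCs were both in replicate 3, the library with the lowest Sod1 of that subtype. The summed dismutase level was 496 to 983 TPM in splenic CD8+ DCs, 518 to 684 TPM in LN CD103+ DCs and 251 to 265 TPM in monocytes. Splenic CD4+ DCs (243 to 588 TPM) and LN CD11b+ DCs (255 to 495 TPM) overlapped the monocytes. Without Cyba, the other 4 oxidase genes summed to 1617 to 1783 TPM in monocytes and to 247 to 703 TPM in DCs. With Cyba the groups overlapped, since the 5 genes summed to 4840 to 5193 TPM in monocytes. They summed to 1489 to 1886 TPM in splenic CD8+, 2624 to 5270 TPM in splenic CD4+, 2871 to 3621 TPM in LN CD103+ and 3629 to 5988.5 TPM in LN CD11b+ DCs.

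**Figure D3:**
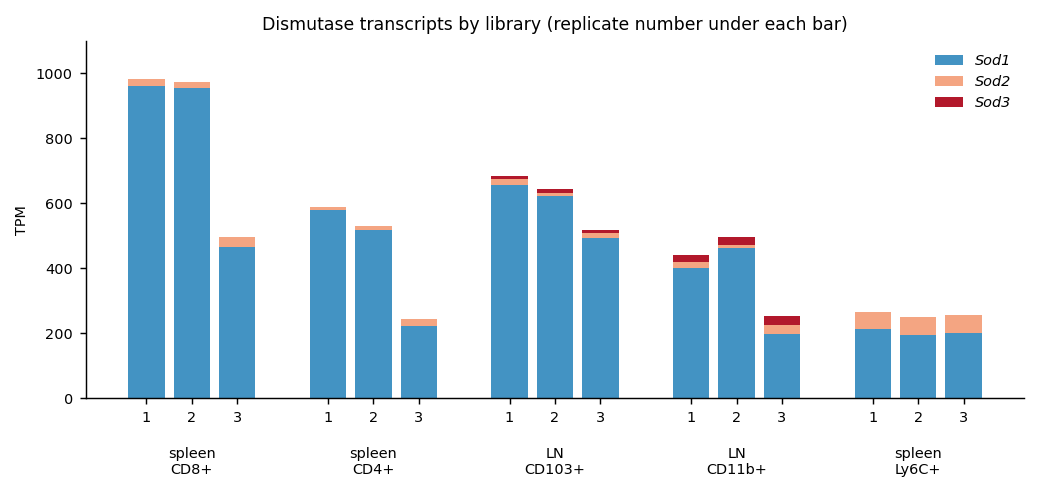
TPM of Sod1, Sod2 and Sod3 stacked for each of the 15 libraries (linear axis from 0), grouped by subtype with the replicate number under each bar. Sod1 makes up 77.4% to 98.4% of each bar, Sod2 is largest in monocytes, and Sod3 is seen in the 6 LN libraries.

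All 9 genes differed between the 5 subtypes in the edgeR quasi-likelihood F-test (adjusted p of 0.000854 for Sod1 at the highest), where 73.5% of all genes tested did so. Pairs of subtypes were then compared in the same fit, and the share of all genes called in the same direction is given beside each count.

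Between the organs in the DC1 lineage, LN CD103+ DCs had less Cybb, Ncf4 and Rac2 and more Cyba and Ncf1 than splenic CD8+ DCs, so that the oxidase genes moved in both directions. Cybb was 5.74-fold lower (log2 -2.52 ± 0.37 SE, adjusted p = 1.89e-05), Ncf4 5.60-fold lower (adjusted p = 5.34e-05) and Rac2 2.69-fold lower (adjusted p = 5.62e-05). Ncf1 was 3.399-fold higher (adjusted p = 3.39e-05) and Cyba 2.36-fold higher (adjusted p = 0.000447). Of the antioxidant genes, Sod3 was higher, Cat was 1.49-fold higher (adjusted p = 0.0376) and Sod2 1.78-fold lower (adjusted p = 0.0438), while Sod1 had a log2 difference of -0.33 ± 0.36 SE (adjusted p = 0.484). Thus 4 genes were higher, where 23.8% of all genes were, and 4 were lower, where 21.8% were. The median log2 difference of the 8 genes without Sod3 was -0.58, and that of its size 1.33, against 0.00 and 0.81 for all genes. Without replicate 1 of LN CD103+ DCs the Cybb difference was larger, at log2 -3.16. The Cat call was lost without splenic CD8+ replicate 1 or 2 or any of the 3 LN CD103+ libraries (adjusted p = 0.0585 to 0.184) and with limma on TPM. The Sod2 call was lost without splenic CD8+ replicate 1 or 3, LN CD103+ replicate 2 or 3, LN CD11b+ replicate 1 or any monocyte library (0.0528 to 0.193), without the libraries numbered 3 (0.156), and with RLE factors, DESeq2 or limma.

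In the DC2 lineage, LN CD11b+ DCs had more Ncf1, Sod3 and Cat and less Ncf4 and Rac2 than splenic CD4+ DCs. Ncf1 was 2.45-fold higher (log2 1.30 ± 0.27 SE, adjusted p = 0.00107), and Cat 1.53-fold higher (adjusted p = 0.0372). Rac2 was 2.26-fold lower (adjusted p = 0.000566) and Ncf4 2.72-fold lower (adjusted p = 0.00755). So 3 genes were higher, where 19.3% of all genes were, and 2 were lower, where 13.8% were. The median log2 difference of the 8 genes without Sod3 was 0.06, and that of its size 0.67, against 0.05 and 0.60 for all genes. Cybb, with log2 -0.73 ± 0.34 SE and no overlap between the groups, had an adjusted p of 0.112, and passed with the replicate number as a block (0.0465), with no filter on low counts (0.00736), in a fit of these 2 subtypes alone (0.0321) and without LN CD103+ replicate 1 (0.0490). Cyba, Sod1 and Sod2 did not pass (adjusted p = 0.242, 0.613 and 0.226). The Ncf4 call was lost without splenic CD4+ replicate 3 (0.0640) and without all libraries numbered 3 (0.0652). The Cat call was lost without splenic CD8+ replicate 2, splenic CD4+ replicate 1 or 2 or LN CD11b+ replicate 3 (0.0545 to 0.179), with limma and in a fit of these 2 subtypes alone.

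Between the lineages in spleen, CD8+ DCs had less of the membrane core and of Rac2 than CD4+ DCs. Cybb was 3.35-fold lower (log2 -1.74 ± 0.35 SE, adjusted p = 0.00110), Cyba 2.395-fold lower (adjusted p = 0.000905) and Rac2 1.74-fold lower (adjusted p = 0.0134). Sod2 was 1.87-fold higher in CD8+ DCs (adjusted p = 0.0460). That makes 3 genes lower, where 14.4% of all genes were, and 1 higher, where 13.1% were, with a median log2 difference of 0.31 for the 8 genes without Sod3 and 0 for all genes. Ncf1 and Ncf4 overlapped between the subtypes (adjusted p = 0.605 and 0.375), as did Cat (0.182). Sod1 had a log2 difference of 0.86 ± 0.36 SE with an adjusted p of 0.0874. It passed with the replicate number as a block (0.00821), with no filter on low counts (0.00227), without splenic CD8+ replicate 3 (0.0375) and without all libraries numbered 3 (0.0134). The Rac2 call was lost without splenic CD8+ replicate 1 (0.0565). The Sod2 call was lost without splenic CD8+ replicate 1 or 3, splenic CD4+ replicate 1 or 2, LN CD103+ replicate 3, LN CD11b+ replicate 1 or any monocyte library (0.0552 to 0.202), without all libraries numbered 3 (0.0639), and with RLE factors, limma or a fit of these 2 subtypes alone.

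Between the lineages in LN, CD103+ DCs had less Cybb, Rac2 and Sod3 than CD11b+ DCs. Cybb was 11.6-fold lower (log2 -3.53 ± 0.38 SE, adjusted p = 4.16e-06), and without replicate 1 of LN CD103+ DCs the log2 difference was -4.18. Sod3 was 2.22-fold lower (adjusted p = 0.0188) and Rac2 2.07-fold lower (adjusted p = 0.00438). These are 3 genes lower, where 7.73% of all genes were, and 0 higher by edgeR, where 5.22% were. The median log2 difference of the 8 genes without Sod3 was -0.44, against -0.01 for all genes. Ncf1 (unadjusted p = 0.0199 by edgeR) and Sod1 (0.0404) were higher in mean and not called. Both had no overlap between the groups and passed with the replicate number as a block. Ncf1 then had log2 0.69 (adjusted p = 0.0272) and Sod1 log2 0.90 (adjusted p = 0.0166). Without the block their adjusted p were 0.108 and 0.170. They also passed with no filter on low counts (0.0336 and 0.00877), and Ncf1 in a fit of these 2 subtypes alone (0.0217) and without splenic CD4+ replicate 2 (0.0360). DESeq2 called the same 3 genes as edgeR. The Sod3 call was lost without LN CD103+ replicate 1 or 3 or LN CD11b+ replicate 2 or 3 (0.0576 to 0.0841). Without all libraries numbered 3, which leaves 2 against 2, the calls of Rac2 (0.0660) and Sod3 (0.118) were lost.

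Monocytes had more of every oxidase gene than splenic CD8+ DCs. Cybb was 18.1-fold higher (log2 4.18 ± 0.39 SE, adjusted p = 6.25e-08), Rac2 2.79-fold higher (adjusted p = 3.76e-05), Ncf4 2.75-fold higher (adjusted p = 0.00386), Cyba 2.41-fold higher (adjusted p = 0.000383) and Ncf1 2.29-fold higher (adjusted p = 0.00144). Sod2 was 2.08-fold higher (adjusted p = 0.0119), while Sod1 was 4.19-fold lower (adjusted p = 0.000202) and Cat 1.63-fold lower (adjusted p = 0.0147). So 6 genes were higher, where 20.4% of all genes were, and 2 lower, where 21.7% were. Without Sod3 the median log2 difference was 1.23, against -0.04 for all genes. The Sod2 call was lost without splenic CD8+ replicate 2 (0.0690). The Cat call was lost without splenic CD8+ replicate 3 (0.1001) or monocyte replicate 3 (0.0631), without all libraries numbered 3 (0.114) and with limma. The neutrophil markers given above were higher in these libraries than in DCs, and their part in the oxidase levels was not tested.

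Against splenic CD4+ DCs, monocytes had 5.40-fold more Cybb (log2 2.43 ± 0.36 SE, adjusted p = 1.99e-05), 3.82-fold more Ncf4 (adjusted p = 0.000420), 2.64-fold more Ncf1 (adjusted p = 0.000355) and 1.60-fold more Rac2 (adjusted p = 0.0194). Cyba was at 986 ± 17.3 CPM against 979.8 ± 342 CPM, with a log2 difference of 0.01 ± 0.24 SE. Sod2 was 3.90-fold higher (adjusted p = 9.22e-05) and Sod1 2.31-fold lower (adjusted p = 0.0119), and Cat did not pass (0.278). Hence 5 genes were higher, where 23.8% of all genes were, and 1 lower, where 24.2% were. Without Sod3 the median log2 difference was 1.04, against -0.01 for all genes. The Rac2 call was lost without splenic CD4+ replicate 2 (0.0859) or monocyte replicate 3 (0.0585), and the Sod1 call without splenic CD4+ replicate 2 (0.0613). Of the remaining pairs, which enter the orders above, 53.2% of all genes were called between monocytes and LN CD103+ DCs in either direction, 47.8% between monocytes and LN CD11b+ DCs, 39.9% between splenic CD8+ and LN CD11b+ DCs and 47.0% between LN CD103+ and splenic CD4+ DCs. Sod1 was lower in monocytes than in LN CD103+ DCs (3.34-fold, adjusted p = 0.000680) and LN CD11b+ DCs (1.91-fold, adjusted p = 0.0437, with LN CD11b+ replicate 3 at 49.9 CPM below all monocyte libraries), and Sod2 higher than in both (3.70-fold, adjusted p = 8.78e-05, and 2.68-fold, adjusted p = 0.00140). Monocytes were compared with several DC subtypes through the same 3 libraries, so these differences are not independent of each other.

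**Figure D4:**
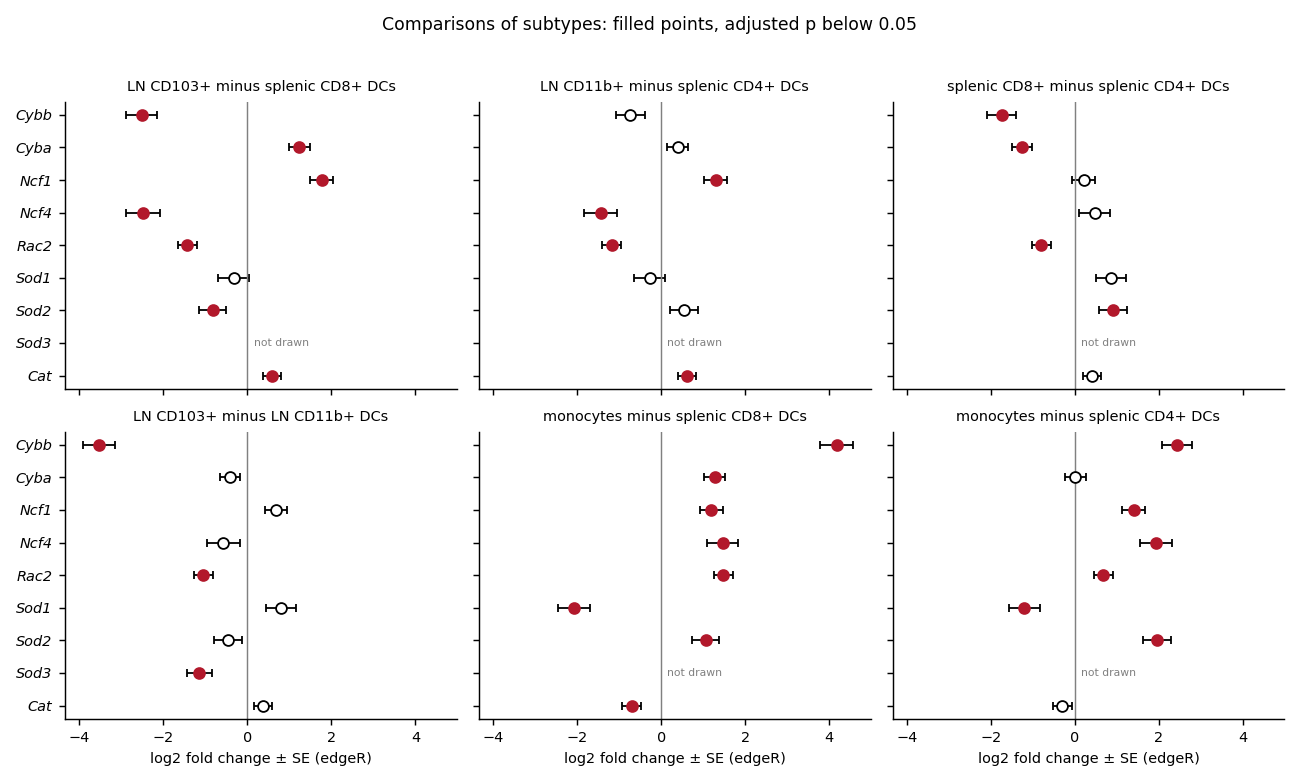
Log2 fold change ± SE of each gene in 6 comparisons (edgeR), filled where the adjusted p is below 0.05, with Sod3 drawn only between the LN subtypes. Ncf1 lies right of 0 and Ncf4 and Rac2 left of 0 in both comparisons of LN with spleen, and Cybb is far right of 0 in both comparisons of monocytes.

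Whether the organ difference was the same in both lineages was tested as an interaction. Cybb was the 1 gene of the 9 called, where 11.2% of all genes were. Its difference between LN and spleen was lower in DC1 than in DC2 by log2 -1.79 ± 0.49 SE (adjusted p = 0.0239), which is a further 3.46-fold. With the replicate number as a block Cyba (0.0389, against 0.127 without) and Sod2 (0.0253, against 0.0635) were called as well, and DESeq2 also called Sod2 (0.0474). With no filter on low counts Sod2 (0.00535) passed too, as it did without splenic CD4+ replicate 3 (0.0251), LN CD103+ replicate 1 (0.0483) or LN CD11b+ replicate 2 (0.0196), and Cyba passed without splenic CD4+ replicate 1 (0.0228). Without splenic CD8+ replicate 1 (adjusted p = 0.0745), LN CD103+ replicate 2 (0.0662) or 3 (0.0669) or LN CD11b+ replicate 1 (0.0568) the Cybb call was lost, and without LN CD103+ replicate 1 the value was log2 -2.43. Of the genes that passed in both lineages in the same direction, Ncf1, Rac2 and Cat had interactions of log2 0.47 ± 0.38 SE, -0.25 ± 0.32 SE and -0.04 ± 0.31 SE (adjusted p = 0.481, 0.690 and 0.970). Ncf4 had an interaction of log2 -1.04 ± 0.55 SE (adjusted p = 0.246), which passed with no filter on low counts (0.0414) and without splenic CD4+ replicate 3 (0.0489). With both splenic groups at 0, no interaction could be estimated for Sod3 from the counts. Limma on log2(TPM + 1) called Sod3 as well, where the added 1 sets the level of both splenic groups.

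The other genes of the pathway were taken from 4 lists, whose counts can be read against the shares of all genes called that were given above for the same comparisons. The medians below follow the order LN CD103+ minus splenic CD8+ DCs, LN CD11b+ minus splenic CD4+ DCs, splenic CD8+ minus CD4+ DCs, LN CD103+ minus CD11b+ DCs, and monocytes minus splenic CD8+ and minus CD4+ DCs. For all genes they were 0.00, 0.05, 0, -0.01, -0.04 and -0.01 on the log2 scale. Of 15 partners and regulators of the oxidase, 10 passed the filter. Between LN CD103+ and splenic CD8+ DCs 3 were higher and 4 lower. Hvcn1, a proton channel that keeps the oxidase working, was at 308 ± 22.2 CPM against 38.5 ± 33.5 CPM (adjusted p = 1.77e-05), and Nrros, a protein known to promote the breakdown of gp91phox, at 37.1 ± 13.3 CPM against 158 ± 15.9 CPM (adjusted p = 1.70e-06). Between LN CD11b+ and splenic CD4+ DCs 2 were higher and 4 lower, among them Nrros (123 ± 30.2 against 392 ± 37.6 CPM, adjusted p = 3.01e-05) and Cybc1, a chaperone that gp91phox needs (132 ± 31.8 against 287 ± 95.7 CPM, adjusted p = 0.00334). In splenic CD8+ against CD4+ DCs 1 was higher and 4 were lower, with Hvcn1 at 38.5 ± 33.5 against 402 ± 124 CPM (adjusted p = 1.56e-05). In LN 1 gene was lower, Nrros. Monocytes were higher in 5 of the 10 against either splenic DC subtype and lower in 1 against CD8+ and 2 against CD4+ DCs. Prkcd, a kinase that phosphorylates p47phox, was at 1362 ± 42.7 CPM in monocytes and in splenic CD8+ DCs at 230.4 ± 27.5 CPM (adjusted p = 1.95e-09). The median log2 differences of this list were -0.29, -0.54, -0.42, -0.18, 0.83 and 0.55.

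Of 22 genes that remove peroxide through glutathione and thioredoxin, 20 passed the filter. LN CD103+ DCs had 6 higher and 6 lower than splenic CD8+ DCs, and LN CD11b+ DCs 5 higher and 1 lower than splenic CD4+ DCs. Srxn1, which repairs overoxidized peroxiredoxins, was at 70.0 ± 12.5 against 5.28 ± 1.65 CPM in the first comparison (adjusted p = 3.51e-08) and at 41.3 ± 8.32 against 3.44 ± 1.28 CPM in the second (adjusted p = 2.19e-07). Gclc, the rate-limiting step of glutathione synthesis, was at 888 ± 188 against 152 ± 32.5 CPM (adjusted p = 2.13e-07) and at 314 ± 57.6 against 77.8 ± 28.0 CPM (adjusted p = 6.50e-06). Prdx6 was lower in LN in both lineages (adjusted p = 8.20e-05 and 0.000688). Splenic CD8+ DCs had 4 higher and 3 lower than splenic CD4+ DCs, and LN CD103+ DCs 2 higher (Txn1 and Gclc) and 1 lower than LN CD11b+ DCs. Monocytes had 5 higher and 3 lower than splenic CD8+ DCs and 8 higher and 2 lower than splenic CD4+ DCs. Gsr, which regenerates glutathione with NADPH, was at 1072 ± 214 CPM in monocytes against 88.5 ± 24.98 CPM in splenic CD8+ DCs (adjusted p = 3.39e-10). The medians of this list were -0.57, 0.22, 0.41, -0.21, 0.12 and 0.47.

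Of 12 regulators and targets of NRF2, the factor that answers oxidative stress, 11 passed. Monocytes had 9 higher than splenic CD8+ DCs, and 9 higher and 1 lower than splenic CD4+ DCs. The list counts regulators of NRF2 and its targets together, so these counts give no direction for the pathway as a whole. The regulator Bach1 was at 119 ± 11.8 CPM in monocytes against 14.5 ± 4.76 CPM in splenic CD8+ DCs (adjusted p = 1.36e-08). Nfe2l2, which encodes NRF2, was at 244 ± 25.2 CPM in monocytes and 39.0 ± 4.65 CPM in splenic CD8+ DCs (adjusted p = 5.01e-09). G6pdx, the first enzyme of the pentose phosphate pathway that supplies NADPH, was at 264 ± 1.95 against 31.1 ± 1.497 CPM (adjusted p = 1.33e-10), and Pgd of the same pathway at 469.8 ± 58.9 against 102 ± 6.85 CPM (adjusted p = 1.49e-08). Between organs, 3 were higher and 3 lower in DC1, and 3 higher and 2 lower in DC2. Slc7a11, the cystine carrier, was higher in LN in both (28.1 ± 5.01 against 1.30 ± 0.219 CPM, adjusted p = 9.94e-10, and 149 ± 32.1 against 14.4 ± 0.856 CPM, adjusted p = 7.91e-09). Hmox1, heme oxygenase 1, was lower in both (10.1 ± 1.54 against 117 ± 17.8 CPM, adjusted p = 1.44e-07, and 33.0 ± 4.22 against 272 ± 112 CPM, adjusted p = 1.13e-06). Splenic CD8+ DCs had 1 higher and 4 lower than CD4+ DCs, and in LN 2 genes were lower in CD103+ DCs, Slc7a11 and Hmox1. The medians of this list were 0.23, 0.19, 0.09, -0.33, 1.45 and 1.45.

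All 7 genes for the supply and binding of metals passed. The metallothionein Mt1 was at 335 ± 61.1 against 27.6 ± 10.6 CPM between LN CD103+ and splenic CD8+ DCs (adjusted p = 9.96e-08) and at 162 ± 59.1 against 15.5 ± 3.31 CPM between LN CD11b+ and splenic CD4+ DCs (adjusted p = 5.70e-07), and Mt2 and Ftl1 were higher in LN in both as well. Slc31a1, the copper importer that serves Sod1, was lower in LN CD103+ DCs (5.61 ± 0.907 against 42.6 ± 7.14 CPM, adjusted p = 4.81e-07). Atox1, a copper chaperone, was at 164 ± 18.5 CPM in monocytes against 338 ± 78.6 CPM in splenic CD8+ DCs (adjusted p = 0.00252), whereas Ccs, the chaperone that loads copper into Sod1, was at 23.9 ± 2.85 against 14.9 ± 2.16 CPM (adjusted p = 0.0293). Over this list 3 were higher and 1 lower in LN than in splenic DC1, 3 were higher in LN than in splenic DC2, and 3 were higher in splenic CD8+ than CD4+ DCs. In LN 2 were higher and 1 lower in CD103+ DCs. Monocytes had 2 higher and 3 lower than CD8+ DCs and 3 higher than CD4+ DCs. The medians were 0.12, 0.22, 0.83, 0.47, 0.54 and 0.26.

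**Figure D5:**
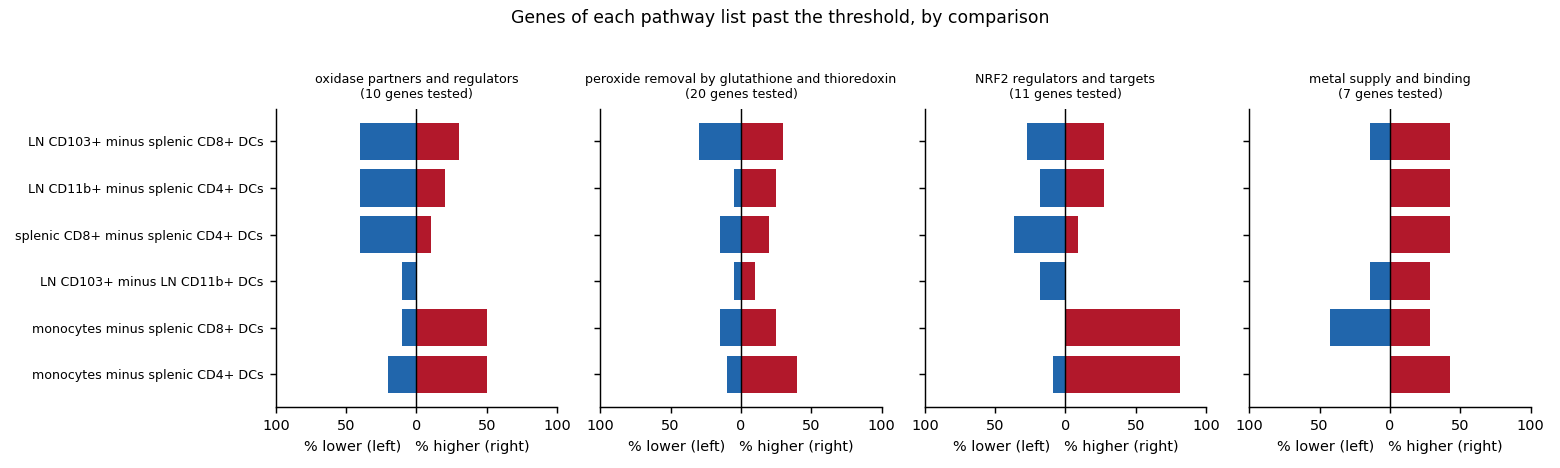
Share of the genes tested in each of 4 pathway lists that were higher (right) or lower (left) past the threshold in 6 comparisons, in percent (edgeR, adjusted p below 0.05). The NRF2 list in monocytes, which counts regulators and targets together, reaches furthest right, with 9 of 11 genes.

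The genes whose log2 CPM was most like that of each member over the 15 libraries were sought among 8934 genes with a mean of at least 10 CPM. Cybb was closest to Csf1r (r = 0.985), the receptor for the growth factor of macrophages, and to Ctsa (0.984). Rac2 was closest to Lcp2 (0.989) and Susd3 (0.986), Ncf4 to Tnfaip8l2 (0.989) and Lrrc25 (0.981), Ncf1 to Ostf1 (0.978) and Dtx3l (0.976), and Cyba to Dennd5a (0.954) and Adap1 (0.931). Sod3 was closest to Ccl17 (0.983), a chemokine of migratory DCs, and to Gm16685 (0.982). Cat was closest to Thap12 (0.964) and Tap2 (0.953), Sod1 to Eif2s2 (0.974) and 1810037I17Rik (0.950), and Sod2 to 4930404N11Rik (0.950) and Tpi1 (0.933). Among the members, Cybb and Rac2 had r = 0.93, Ncf4 and Rac2 0.88 and Cybb and Ncf4 0.76, while Cybb had r = 0.17 with Cyba, -0.25 with Ncf1 and -0.85 with Cat. These are descriptions over 15 libraries that share 5 subtypes.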

How the data were processed

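RNA-seq of 15 murine libraries was used, 3 from each of 5 sorted subtypes, with groups from the sample labels. The authors deposited raw counts per Ensembl gene. Their Ion Torrent reads had been aligned with STAR 2.4.0j on mm10 and counted with featureCounts (Subread 1.5.2), without strand and with a read over several genes counted for each. The TPM values were deposited by the authors and equal the counts over exon length, scaled to one sum.

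Genes above 1 CPM in 3 or more libraries (14456) entered 1 fit of all 15 libraries with edgeR 4.0.16 in R 4.3.3 (quasi-likelihood F-test, TMM factors of 0.883 to 1.1, common dispersion 0.0681, 10 residual degrees of freedom). All adjusted p are from this fit (Benjamini-Hochberg over all genes, threshold 0.05) unless another setting is named. The test was first run on simulated data. The alternatives used RLE factors, DESeq2 1.42.0, no filter, filterByExpr, a log2 change of 1 or more in size as an added requirement, limma 3.58.1 with trend on log2(TPM + 1), only the subtypes compared, the replicate number as a block, 1 run per monocyte library, and each library left out. Leaving out all libraries numbered 3 was chosen after seeing the data.

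The numbers paired the libraries of splenic CD8+ and CD4+ DCs (correlations of their deviations from the group means 0.162, 0.339 and 0.375), LN CD103+ and CD11b+ DCs (0.222, 0.179 and 0.259), splenic CD4+ and LN CD11b+ DCs (0.197, 0.243 and 0.266) and splenic CD4+ and LN CD103+ DCs (0.117, 0.124 and 0.146), where every pair was above 0.1, a hint from the data and not from the labels. The members, lists and markers were chosen with earlier results of these data known. Of the pathway lists, up to 4 genes per comparison past the threshold could be named, those of the largest fold change whose higher group averaged 10 CPM or more, with the 2 genes most correlated with each member. 1 gene was taken out of the lists, their counts and their medians, and is not reported here. Intervals and floors cover counting error only.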

Additional observations from a re-analysis of the deposited data

Results flagged for a closer look

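The difference between LN and spleen in Cybb was not the same in both lineages by the edgeR interaction test, which is why it is listed here. The log2 difference in DC1 minus that in DC2 was -1.79 (adjusted p = 0.0239). In DC1 all 3 LN libraries (9.25 to 31.5 CPM) lay below all 3 splenic ones (55.3 to 158 CPM), and in DC2 the LN libraries (193 to 235 CPM) lay below the splenic ones (327 to 389 CPM) too, although the DC2 difference did not pass (0.112) except in some other settings, among them the replicate number as a block (0.0465). LN CD103+ replicate 1, with 216 CPM of B cell markers, had the highest Cybb of its subtype, and without it the value was log2 -2.43. The call was lost without splenic CD8+ replicate 1 (log2 -1.37, adjusted p = 0.0745), LN CD103+ replicate 2 (-1.46, 0.0662) or 3 (-1.65, 0.0669) or LN CD11b+ replicate 1 (-1.71, 0.0568).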

How the results depend on the processing

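Of 1534 alternative values for 59 combinations of a gene and a comparison, 1445 stayed on the same side of the threshold in the same direction or below it in both, 65 lost the call, 24 gained it and 0 called values changed sign. The number of the 9 genes called moved by over 1.5 times in 3 comparisons, with fits that leave out 1 library given further below. Between splenic CD8+ and CD4+ DCs it was 2 where a log2 change of 1 or more in size was also required, against 4. Of all 14456 genes tested, 2643 were called there with that requirement, against 3966. Between LN CD103+ and CD11b+ DCs it was 5 with no filter, 5 with the replicate number as a block and 1 without the libraries numbered 3, against 3. All genes called there were 2299 of 23169 with no filter, against 1872 of 14456. For the interaction it was 2 with DESeq2, 3 with no filter, 2 with limma, which added Sod3, and 3 with the block, against 1. All genes called were 2150 of 14456 with DESeq2 and 2089 of 23169 with no filter, against 1620 of 14456. The cause of these moves was not tested. The block added Cyba (adjusted p = 0.0389) and Sod2 (0.0253) to the interaction by edgeR, and beyond the calls named with the comparisons it changed no other call of these 9 genes in the 6 comparisons. Leaving out 1 library at a time gave 9 to 9 genes for the F-test and 0 to 3 for the interaction. It gave 6 to 8 for LN CD103+ against splenic CD8+ DCs and 4 to 6 for LN CD11b+ against splenic CD4+ DCs. For the splenic DCs it gave 2 to 4, for the LN DCs 2 to 4, and for monocytes against CD8+ and CD4+ DCs 7 to 8 and 4 to 6. Of the 36 neighbouring pairs, 12 to 14 were called, against 14 with all libraries. Counts of 0 in splenic DCs limit Sod3 to folds that are lower bounds.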
